A study of Mus musculus with 10 samples.

Results

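The 9 genes described here encode the transcription factor Twist1, its close relative Twist2, the E proteins that both pair with (Tcf3, Tcf4 and Tcf12) and the Id proteins that take E proteins out of use (Id1, Id2, Id3 and Id4). They were found by symbol among the 52459 genes of the expression table, and all 9 were present. RNA was sequenced from liver tumors of transgenic FVB/N mice, 5 MYC/Twist1-HCC and 5 MYC-HCC libraries. In MYC/Twist1-HCC the LAP-tTA driver, in which a liver-enriched promoter makes the tetracycline-controlled activator tTA, switched on TRE-MYC together with TRE-Twist1/Luc, a bidirectional construct of a mouse Twist1 cDNA and firefly luciferase. MYC-HCC carried LAP-tTA and TRE-MYC without the Twist1 construct, so the driver and the MYC transgene were common to both groups. Doxycycline held the transgenes off until the mice were adult, and tumors were taken at morbidity, at ages that the sources used here do not give per tumor. The labels do not say whether the 5 libraries of a group came from 5 mice, so the p-values measure the spread between these tumor samples only.

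Twist1 and Twist2 are basic helix-loop-helix (bHLH) proteins. A bHLH protein binds DNA as a pair of subunits, at the E-box, a short motif written CANNTG. The class to which Twist1 belongs usually needs an E protein as its partner, although Twist1 can also pair with itself, and E proteins are made in most tissues. Id proteins have the helix-loop-helix but lack the basic region that touches DNA, so an E protein held by an Id protein cannot bind. Twist1 acts in mesoderm and cranial development and is known in carcinoma for driving epithelial-mesenchymal transition. In the adult liver Id1 is known from sinusoidal endothelial cells, and Id1, Id2 and Id3 are among the genes that bone morphogenetic protein (BMP) signals induce.

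Twist1 and Twist2 are alike in their bHLH region, so the extent to which their coding bases differ is given here. Over 480 aligned coding bases they shared 84.2%, and the longest run of identical bases was 23. The stretch below covers part of the bHLH region. It runs from coding base 355 to 474 of Twist1 (chromosome 12) and from 217 to 336 of Twist2 (chromosome 1). Bases are counted from the first base of the start codon. The sequences were read from the GRCm38 transcripts of the GENCODE vM21 annotation, and capitals mark the 12 bases at which the genes differ, all 12 of them at the third base of a codon.
Twist1: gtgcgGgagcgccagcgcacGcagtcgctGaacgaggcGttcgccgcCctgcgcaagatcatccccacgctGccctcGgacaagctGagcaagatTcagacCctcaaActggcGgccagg
Twist2: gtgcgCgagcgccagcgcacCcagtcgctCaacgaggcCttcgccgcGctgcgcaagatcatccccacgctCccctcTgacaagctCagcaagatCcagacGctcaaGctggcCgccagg

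The values are FPKM, reads per kilobase of gene model and per 1 M reads. The estimated depth (in units of 1 M reads) was 21.2 to 23.7 in MYC/Twist1-HCC and 19.2 to 23.4 in MYC-HCC. MYC-HCC library 4 stood apart from the other 4 MYC-HCC libraries, and the log2 differences and medians below that it moves are given with and without it. The summed FPKM of 12 hepatocyte markers was 5394 to 15294 in MYC/Twist1-HCC, 2138 to 5626 in MYC-HCC libraries 1, 2, 3 and 5, and 8847 in library 4, so hepatocyte transcripts were abundant in all 10 tumors. The sum of 14 endothelial markers was 21.9 to 61.4 in MYC/Twist1-HCC and 20.6 to 28.7 in those 4 MYC-HCC libraries, against 87.4 in library 4. For 12 markers of stellate cells and fibroblasts the sums were 9.79 to 92.9, 29.7 to 65.4 and 111.5. Neutrophil markers summed to 55.0 to 695.6 in MYC/Twist1-HCC and to 2.98 to 31.3 in MYC-HCC, and erythroid markers to 173.7 to 2283 and 39.6 to 141.4. In the test described next, 0 genes of these 5 lists passed. At an unadjusted p under 0.05 in limma there were 6 of 6 neutrophil, 8 of 8 erythroid and 6 of 12 hepatocyte genes, all higher. Of all genes tested, 7.83% were higher at this p. The lists hold 10 neutrophil and 9 erythroid markers, of which the rest were too low to be tested. Camp, a neutrophil gene, was below 0.5 FPKM in all 5 MYC-HCC libraries, so it was tested only through MYC/Twist1-HCC. There were 0 of 12 endothelial and 0 of 10 stellate genes. Without MYC-HCC library 4, 5 of the 6 neutrophil, 6 of the 8 erythroid and 4 of the 12 hepatocyte genes passed, all higher. Of the endothelial and stellate genes 0 passed then, beside 4.33% of all genes tested called higher and 4.72% called lower. In bulk tumors fewer cells of a type and less RNA per cell cannot be told apart, and the part of cell composition in the results below was not tested.

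The groups were compared with limma on log2(FPKM + 0.1), for genes that reached 0.5 FPKM in 5 or more libraries, and adjusted p-values are those of limma with Benjamini-Hochberg adjustment over all 12146 genes tested, with a threshold of 0.05. A positive log2 difference means a higher level in MYC/Twist1-HCC. The scale understates changes of low genes. Of the 9 genes, 7 passed the filter, and 0 of these 7 passed the test, where 0.0247% of all genes tested did (3 genes, all higher). At an unadjusted p under 0.05 there were 2 of the 7, Twist1 and Id1, both higher, beside 16.3% of all genes tested in either direction and 7.83% higher. Twist1 was the only one of the 7 whose groups did not overlap, which 4.02% of all genes tested did in either direction and 2.35% in the higher direction. The median log2 difference of the 7 was 0.30, and that of all genes tested was -0.04, with 0.49 and -0.06 when MYC-HCC library 4 was left out. Without MYC-HCC library 4, 1 of the 7 was called higher (Twist1), beside 4.33% of all genes called higher and 4.72% called lower. These counts and medians include Twist1, the transgene that sets the groups apart, so its part in them was fixed by the design. Among the other tested members Id1 alone had an unadjusted p under 0.05 in limma, and none was called with or without library 4.

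**Figure D1:**
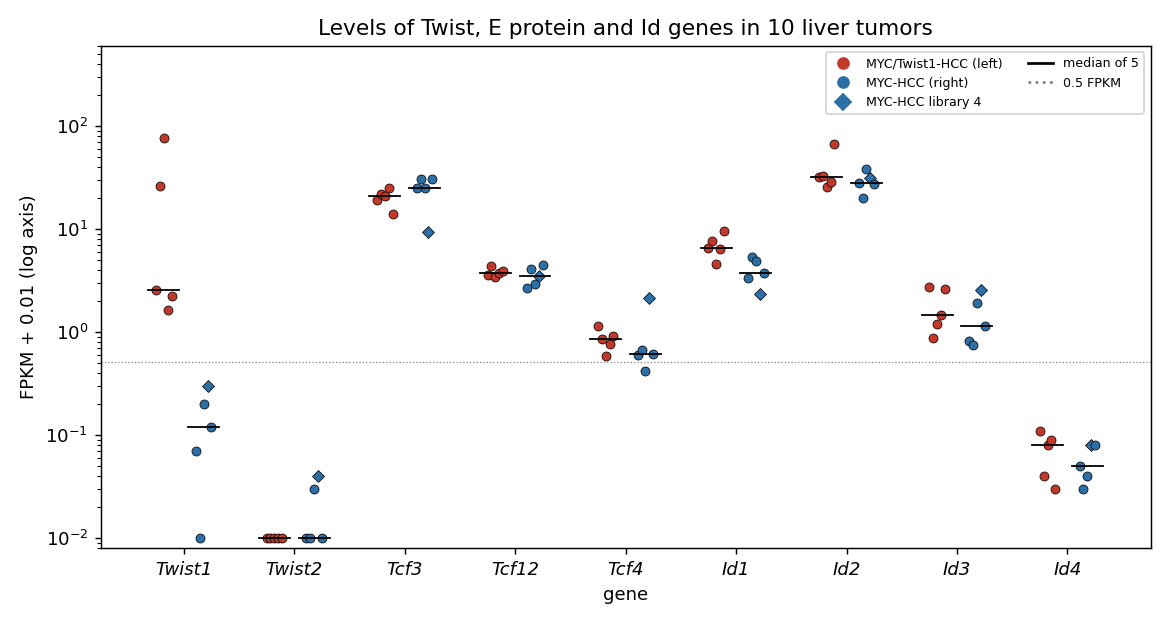
FPKM of the 9 genes in each of 10 tumors, drawn as FPKM + 0.01 on a log axis, with MYC/Twist1-HCC in red at the left of each gene and MYC-HCC in blue at the right, a bar at the median of 5, and a diamond for MYC-HCC library 4. Twist1 lies at 1.62 to 77.19 FPKM in MYC/Twist1-HCC and at 0 to 0.29 FPKM in MYC-HCC, while the groups of every other gene overlap.

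Twist1 lies on chromosome 12 of GRCm38, from 33957671 to 33959829 on the plus strand, in a gene model of 1628 bases. It was at 2.56, 26.05, 77.19, 1.62 and 2.21 FPKM in MYC/Twist1-HCC libraries 1 to 5, and at 0.06, 0, 0.19, 0.29 and 0.11 FPKM in MYC-HCC libraries 1 to 5. The lowest MYC/Twist1-HCC library exceeded the highest of MYC-HCC, and within MYC/Twist1-HCC, libraries 2 and 3 were far above the other 3. In estimated reads these are 60 to 2703 reads against 0 to 10, so the MYC-HCC levels are close to what single reads give. The log2 difference was 5.15 (SE 1.0, limma adjusted p = 0.0910), and 5.38 without MYC-HCC library 4 (SE 1.06, adjusted p = 0.0259).

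Twist1 is the transgene that sets the groups apart, so its difference checks the labels and is no finding. It also reached the test only through MYC/Twist1-HCC, since all 5 MYC-HCC libraries were below 0.5 FPKM. Reads of the transgene's cDNA and of the mouse gene were not told apart in the table, and luciferase, which shares the transgene's promoter, was not analysed here. The highest MYC/Twist1-HCC library had 47.6 times the Twist1 FPKM of the lowest, against 2.61 times or less in the same 5 libraries for Tcf3, Tcf4, Tcf12, Id1 and Id2, 3.13 times for Id3 and 5.0 times for Id4, which rests on few reads. The mean was 21.9 ± 32.6 FPKM in MYC/Twist1-HCC and 0.130 ± 0.113 FPKM in MYC-HCC (SD, n = 5 each).

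The neighbours of the mouse gene on chromosome 12 were at unlike levels, and they do not show the activity of the mouse Twist1 gene itself. Hdac9, a histone deacetylase gene next to Twist1 whose introns hold known Twist1 enhancers, was at 0.01 to 0.03 FPKM in MYC/Twist1-HCC and at 0.01 to 0.09 FPKM in MYC-HCC. Ferd3l, another bHLH gene beside Twist1, was listed at 0 in all 10 libraries. Of the 7 genes of this neighbourhood in the table, 2 were tested and 0 passed, 1 of them with an unadjusted p under 0.05. Twistnb, which encodes a subunit of RNA polymerase I, was at 4.77 ± 0.791 FPKM in MYC/Twist1-HCC and 6.79 ± 1.18 FPKM in MYC-HCC (SD, n = 5 each; log2 difference -0.50, SE 0.17, limma adjusted p = 0.225). For Snx13, a sorting nexin gene, the difference was 0.19 (log2, SE 0.25, adjusted p = 0.726), and 0.38 without MYC-HCC library 4 (adjusted p = 0.220).

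Twist2, which acts in dermal and osteoblast development, lies on chromosome 1 from 91801461 to 91848028 on the plus strand. It was at 0 FPKM in all 5 MYC/Twist1-HCC libraries, and in MYC-HCC it was at 0, 0, 0.02, 0.03 and 0 FPKM, which are 1 and 2 estimated reads in libraries 3 and 4. A count of 0 allows up to 3 reads, or 0.0399 to 0.0447 FPKM in the MYC/Twist1-HCC libraries, for counting error only. The gene was below the filter, and no difference was detectable at this depth. The libraries with 1003 and 2703 estimated Twist1 reads thus listed 0 for the gene with the similar bHLH sequence printed above.

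The E proteins are the partners with which Twist1 binds DNA. Tcf3, which encodes E12 and E47, lies on chromosome 10 from 80409514 to 80433647 on the minus strand. It was at 19.25, 22.08, 21.20, 25.18 and 14.14 FPKM in MYC/Twist1-HCC libraries 1 to 5, and at 24.97, 30.99, 25.09, 9.44 and 30.76 FPKM in MYC-HCC libraries 1 to 5. The groups overlapped: MYC-HCC library 4 was the lowest of the 10, and 4 of the 5 MYC/Twist1-HCC libraries were below each of the other 4 MYC-HCC libraries. The log2 difference was -0.16 (SE 0.31, limma adjusted p = 0.819). Without MYC-HCC library 4 it was -0.47 (SE 0.17, adjusted p = 0.0986), still short of the threshold.

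Tcf12, which encodes HEB, lies on chromosome 9 from 71842688 to 72111871 on the minus strand. It was at 3.56, 4.39, 3.41, 3.73 and 3.93 FPKM in MYC/Twist1-HCC and at 2.70, 4.12, 2.94, 3.52 and 4.52 FPKM in MYC-HCC. It varied least of the 7 tested genes, the MYC/Twist1-HCC range lay inside that of MYC-HCC, and library 4 sat in the middle of its group. Its log2 difference was 0.11 (SE 0.17, limma adjusted p = 0.765) and 0.12 without library 4.

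Tcf4, which encodes E2-2 and is known for its part in plasmacytoid dendritic cells and in the endothelium, lies on chromosome 18 from 69343356 to 69689079 on the plus strand. It was at 1.13, 0.84, 0.58, 0.76 and 0.91 FPKM in MYC/Twist1-HCC and at 0.59, 0.66, 0.41, 2.14 and 0.60 FPKM in MYC-HCC. MYC-HCC library 4 was the highest of all 10, and 4 of the 5 MYC/Twist1-HCC libraries were above the other 4 MYC-HCC libraries. The log2 difference was 0.14 (SE 0.38, limma adjusted p = 0.878) and, without library 4, 0.49 (SE 0.26, adjusted p = 0.218). It turned to -0.039 when MYC-HCC library 3 was left out, so no direction is given for Tcf4. In library 4 the endothelial sum was also the highest of the 10. The sum of 7 markers of plasmacytoid dendritic cells was 54.4 there, below the 86.0 to 126.4 of the other 4 MYC-HCC libraries. Bst2 alone gave 53.54 FPKM of it, beside 84.77 to 124.86 FPKM elsewhere in MYC-HCC. Siglech, another of these markers, was at 0.06 FPKM in library 4, inside its range of 0.03 to 0.24 FPKM elsewhere in MYC-HCC. The sum thus follows Bst2 and cannot give the amount of plasmacytoid dendritic cells. The part of endothelial and plasmacytoid dendritic cells in the Tcf4 values was not tested.

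Id1 lies on chromosome 2 from 152736251 to 152737410 on the plus strand and came nearest to a call after Twist1. It was at 6.58, 7.73, 4.57, 6.45 and 9.62 FPKM in MYC/Twist1-HCC libraries 1 to 5, and at 3.37, 5.33, 4.90, 2.35 and 3.77 FPKM in MYC-HCC libraries 1 to 5. In 4 of the 5 MYC/Twist1-HCC libraries Id1 was above every MYC-HCC library, and library 3 was the 1 that overlapped. The mean was 6.99 ± 1.86 FPKM in MYC/Twist1-HCC and 3.94 ± 1.197 FPKM in MYC-HCC (SD, n = 5 each), a ratio of 1.77. The log2 difference was 0.82 (SE 0.25, limma adjusted p = 0.182), and 0.66 (SE 0.22, adjusted p = 0.0801) without MYC-HCC library 4. Under weights that limma estimates for the quality of each library it was 0.77 and past the threshold (adjusted p = 0.0196), in a fit that called 20.4% of all genes tested.

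Id2, on chromosome 12 from 25093799 to 25097140 on the minus strand, was the most abundant Id gene. It was at 31.90, 33.05, 25.80, 28.51 and 67.35 FPKM in MYC/Twist1-HCC and at 27.84, 20.26, 38.59, 31.04 and 27.50 FPKM in MYC-HCC. Apart from MYC/Twist1-HCC library 5, which was the highest of the 10, the MYC/Twist1-HCC libraries lay inside the range of MYC-HCC. Id2 had a difference on the log2 scale of 0.30 (SE 0.26, limma adjusted p = 0.588), and 0.06 (adjusted p = 0.922) without that library.

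Id3, on chromosome 4 from 136143497 to 136145755 on the plus strand, was much lower. It was at 2.72, 0.87, 1.2, 1.47 and 2.64 FPKM in MYC/Twist1-HCC and at 0.82, 0.74, 1.92, 2.56 and 1.15 FPKM in MYC-HCC, with the groups interleaved and library 4 again the highest of MYC-HCC. These values rest on 37 to 110 estimated reads against 31 to 96. The log2 difference was 0.31 (SE 0.41, limma adjusted p = 0.723), and 0.55 (SE 0.38, adjusted p = 0.353) without library 4.

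Id4, known mainly from the developing nervous system, lies on chromosome 13 from 48261228 to 48266026 on the plus strand. It was at 0.02 to 0.10 FPKM in MYC/Twist1-HCC and at 0.02 to 0.07 FPKM in MYC-HCC, that is, 2 to 9 and 2 to 6 estimated reads. The gene was below the filter in every library, and no difference was detectable at this depth.

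**Figure D2:**
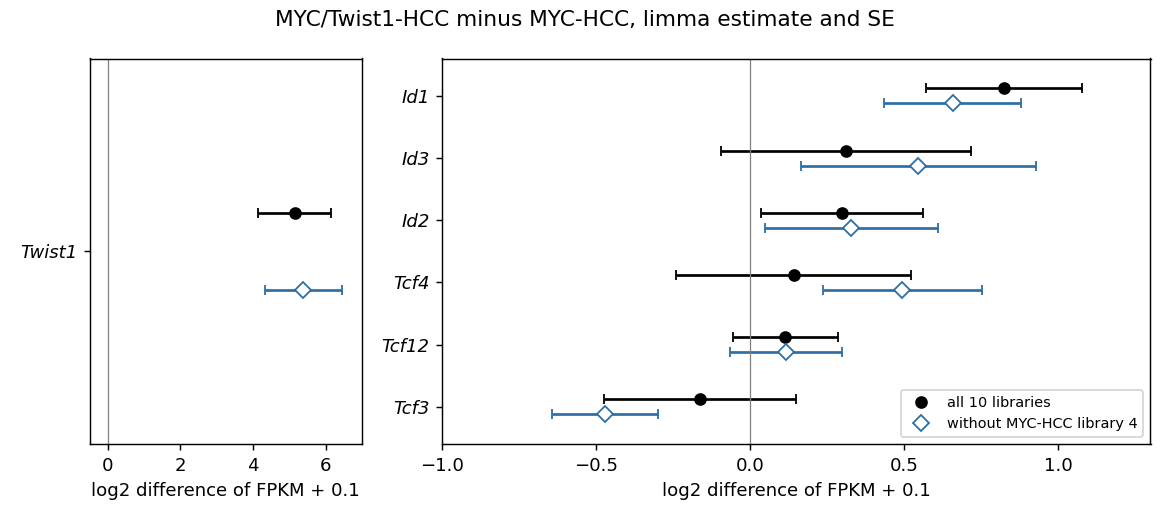
Log2 differences of the 7 tested genes, MYC/Twist1-HCC minus MYC-HCC on the log2(FPKM + 0.1) scale, as the limma estimate with its SE, from all 10 libraries (black circles) and without MYC-HCC library 4 (open diamonds), with Twist1 on its own axis. Leaving out library 4 takes Tcf3 to -0.47 and Tcf4 to 0.49, while Tcf12 stays at 0.12.

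The levels of the members were ranked per length within each group. By mean FPKM the order in MYC/Twist1-HCC was Id2, Twist1, Tcf3, Id1, Tcf12, Id3, Tcf4, Id4 and Twist2. The place of Twist1 came from libraries 2 and 3: its median was 2.56 FPKM, its range overlapped with those of Id2, Tcf3, Id1, Tcf12 and Id3, and in the other 3 libraries it was below Tcf3, Id1 and Tcf12. Among the rest, the ranges of Id3 and Tcf4 overlapped and those of other neighbours in the order did not. In MYC-HCC the order was Id2, Tcf3, Id1, Tcf12, Id3, Tcf4, Twist1, Id4 and Twist2, with overlap between Id2 and Tcf3, Id1 and Tcf12, Id3 and Tcf4, and among the last 3. The place of Tcf12 and Tcf4 depends on the length used. The table's FPKM were divided by all exons of a gene merged, 3.19 times the length of the longest coding transcript for Tcf4 and 2.46 times for Tcf12, but 1.37 times for Tcf3 and 1.24 for Id2, and by the same length for Twist1 and Id1. Over the longest coding transcript Tcf12 moved above Id1 in both groups, at means of 9.38 FPKM in MYC/Twist1-HCC and 8.78 FPKM in MYC-HCC, Tcf4 moved above Id3, and in MYC/Twist1-HCC Tcf3 moved above Twist1.

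Tcf3 made up most of the E protein transcripts. Its share of the summed FPKM of Tcf3, Tcf4 and Tcf12 was 74.5% to 84.9% in MYC/Twist1-HCC and 85.7% to 88.4% in MYC-HCC libraries 1, 2, 3 and 5, with 62.5% in library 4. Over the longest coding transcript the shares were 60.6% to 74.8% in MYC/Twist1-HCC, 76.3% to 80.1% in those 4 libraries and 45.5% in library 4. On both scales every MYC/Twist1-HCC library thus lay between library 4 and the rest of MYC-HCC. Id2 likewise dominated the Id genes, at 77.2% to 84.6% of their summed FPKM in MYC/Twist1-HCC and 76.9% to 86.8% in MYC-HCC.

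The sums give the amount of transcript for each side of the dimer. The E protein sum was 23.9, 27.3, 25.2, 29.7 and 19.0 FPKM in MYC/Twist1-HCC libraries 1 to 5 and 28.3, 35.8, 28.4, 15.1 and 35.9 FPKM in MYC-HCC libraries 1 to 5. The Id sum was 41.3, 41.7, 31.6, 36.5 and 79.6 FPKM in MYC/Twist1-HCC and 32.1, 26.4, 45.4, 36.0 and 32.5 FPKM in MYC-HCC. Both sums overlapped between the groups. Id transcripts per E protein transcript were 1.73, 1.53, 1.26, 1.23 and 4.20 in MYC/Twist1-HCC, all above 1, and 1.13, 0.737, 1.60, 2.39 and 0.906 in MYC-HCC, where libraries 2 and 5 were below 1. Over the longest coding transcript these ratios were 0.952 to 3.03 in MYC/Twist1-HCC and 0.575 to 1.56 in MYC-HCC, so whether a tumor had more Id than E protein transcript depends on the length used. They are ratios of RNA and say nothing of protein.

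Twist1 differed from its partners in how far it ranged. Twist1 per E protein transcript was 0.107, 0.954, 3.06, 0.0546 and 0.116 in MYC/Twist1-HCC libraries 1 to 5 and at most 0.0192 in MYC-HCC. Twist1 transcript thus exceeded the E protein sum in library 3, was just below it in library 2 and was at or below 0.116 of it in the other 3 libraries. Over the longest coding transcript the ratio was 1.97 in library 3 and 0.596 in library 2, so the place of library 2 depends on the length used.

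**Figure D3:**
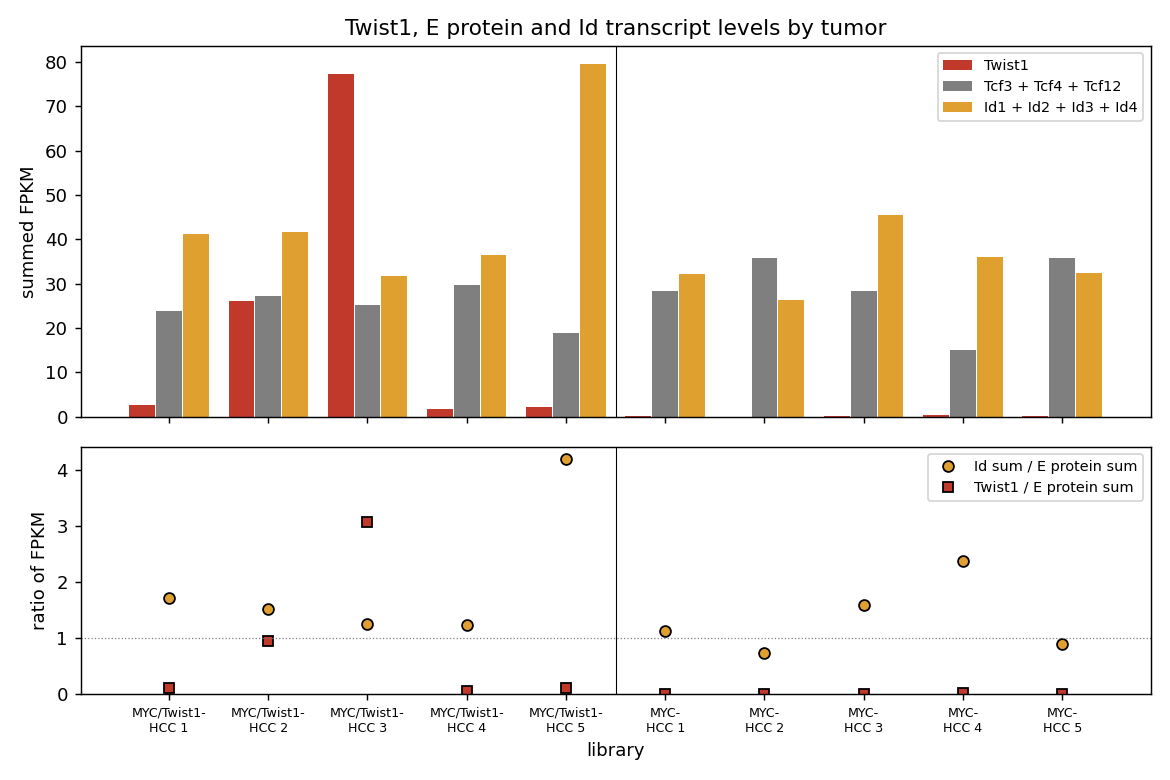
Upper panel, FPKM of Twist1 (red), of Tcf3, Tcf4 and Tcf12 summed (grey) and of Id1 to Id4 summed (yellow) in each of 10 tumors, with the 5 MYC/Twist1-HCC libraries left of the line and the 5 MYC-HCC libraries right of it. Lower panel, the Id sum (circles) and Twist1 (squares) divided by the E protein sum, with a dotted line at 1, where Twist1 reaches 3.06 in MYC/Twist1-HCC library 3 and the Id ratio reaches 4.20 in MYC/Twist1-HCC library 5.

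MYC-HCC library 4 departed from the other 4 MYC-HCC libraries in several of the members at once. Against their mean log2 level it was at 0.342-fold for Tcf3 and 0.561-fold for Id1, and at 3.41-fold for Tcf4 and 2.25-fold for Id3, while Tcf12 was at 1.01-fold and Id2 at 1.12-fold. Tcf3 and Tcf4 thus moved in opposite directions in that tumor. Of all genes tested, 6.61% were as low or lower than Tcf3 in this ratio, and 18.1% were as low or lower than Id1. At or below Tcf4 were 93.6%, and at or below Id3 88.1%. Many other genes thus shifted as far in library 4, and the departure is not particular to the members.

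The genes with the profile most like each member were sought over the 10 libraries, for the 5 tested members with an SD of at least 0.5 on the log2 scale. The measure of likeness was the root mean square difference between centred log2 profiles, and it includes both the groups and library 4, so it is a description. For Tcf3 the nearest were Tubb5, a beta-tubulin (0.12), Kifc1, a mitotic kinesin (0.15), and Nup62, a nucleoporin (0.15), beside an SD of 0.52 for Tcf3 itself. Tubb5 was at 206.1 ± 38.1 FPKM in MYC/Twist1-HCC and 252.7 ± 78.6 FPKM in MYC-HCC (SD, n = 5 each), with 120.2 FPKM in MYC-HCC library 4. For Tcf4 they were Lix1l (0.11), Hook3, a microtubule adaptor (0.17), and Itpkb, an inositol kinase (0.19), beside an SD of 0.59, and all 3 were highest in library 4.

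For Id3 the nearest genes were S100a13, a calcium-binding protein (0.23), Sox18, a transcription factor of endothelial development (0.29), and Ctsk, the protease cathepsin K (0.30), beside an SD of 0.68. Sox18 was at 9.06, 2.26, 2.96, 4.13 and 4.79 FPKM in MYC/Twist1-HCC and at 2.27, 2.63, 3.54, 7.96 and 3.02 FPKM in MYC-HCC, and like Id3 it was highest in MYC/Twist1-HCC library 1 and MYC-HCC library 4 within their groups. The endothelial sum had its 2 highest values in the same 2 libraries, 61.4 and 87.4 FPKM. So did the sum of stellate and fibroblast markers, at 92.9 and 111.5 FPKM. In MYC/Twist1-HCC library 5 Id3 was at 2.64 FPKM, near its 2.72 FPKM in library 1, with an endothelial sum of 29.9 FPKM. The part of these cells in the Id3 values was not tested. For Id1 the nearest were Pxn, which encodes paxillin (0.26), Hcar2, a receptor for hydroxycarboxylic acids (0.26), and Glt8d1 (0.27), beside an SD of 0.59. For Twist1 the nearest were Gm15889 (1.64), Abcg5 (1.803) and Pla1a (1.89), beside an SD of 3.21. Both these distances and the SD were larger than those of the other members, so the distances are not comparable between members. Gm15889, which was also 1 of the 3 genes called, was even within MYC/Twist1-HCC, at 4.66 to 6.63 FPKM, beside 0.12 to 0.61 FPKM in MYC-HCC.

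**Figure D4:**
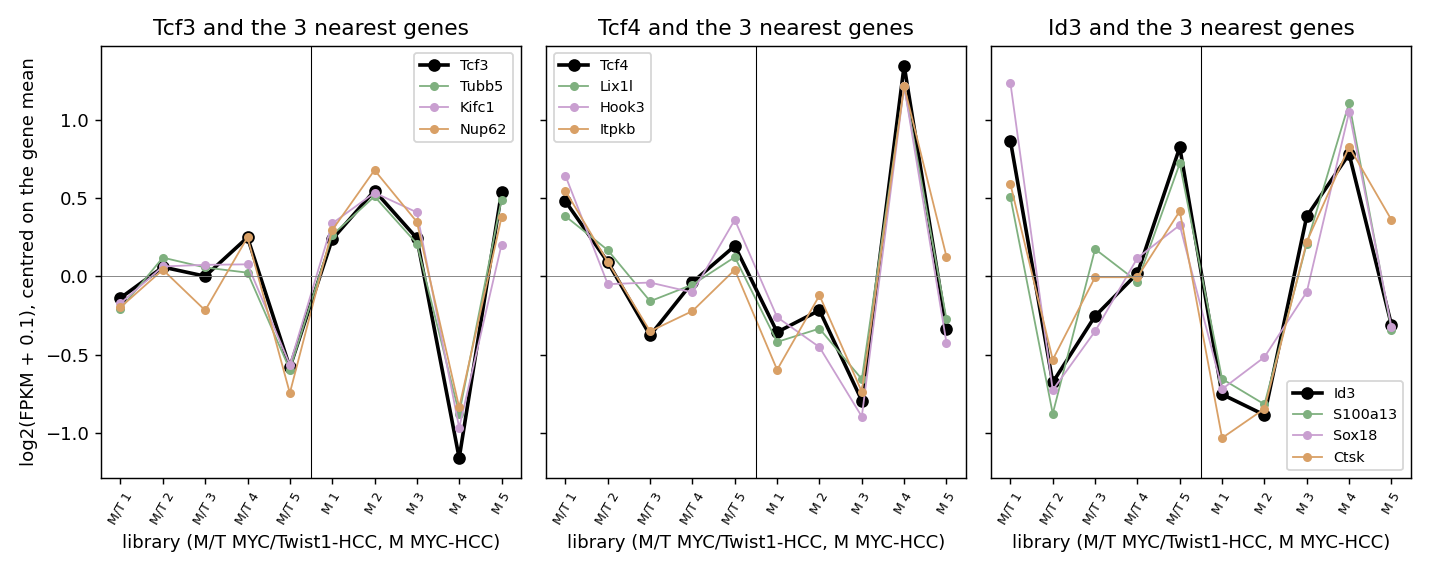
Centred log2(FPKM + 0.1) of Tcf3, Tcf4 and Id3 (black) and of the 3 genes nearest to each, over the 5 MYC/Twist1-HCC libraries (M/T, left of the line) and the 5 MYC-HCC libraries (M, right of it). Tcf3 and its neighbours are lowest in MYC-HCC library 4, where Tcf4 and its neighbours are highest.

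Other bHLH factors that pair with E proteins were few. Of 32 in the list, 3 were tested, 0 passed, and 1 had an unadjusted p under 0.05. Lyl1, a bHLH factor of blood and endothelial cells, was at 2.39, 1.08, 0.54, 0.83 and 1.47 FPKM in MYC/Twist1-HCC and at 0.18, 0.40, 0.46, 0.16 and 0.51 FPKM in MYC-HCC. The groups did not overlap, but 4 of the 5 MYC-HCC libraries were below 0.5 FPKM, so that it reached the test mainly through MYC/Twist1-HCC (log2 difference 1.56, SE 0.41, limma adjusted p = 0.144). Tal1, a related factor of the erythroid lineage that was chosen after its values were seen, was below the filter, at 5.53, 2.52, 0.51, 0.54 and 0.15 FPKM in MYC/Twist1-HCC and 0.08 to 0.25 FPKM in MYC-HCC. The erythroid marker sums were also higher in every MYC/Twist1-HCC library than in any MYC-HCC library, and their part in Lyl1 and Tal1 was not tested. Bhlha15, known as Mist1 from secretory cells, was the most abundant of the 3, at 17.5 ± 6.52 FPKM in MYC/Twist1-HCC and 11.9 ± 6.24 FPKM in MYC-HCC (SD, n = 5 each; log2 difference 0.73, SE 0.47, adjusted p = 0.448). Its lowest value, 2.87 FPKM, was that of MYC-HCC library 4, without which the difference was 0.29 (SE 0.30, adjusted p = 0.545).

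The Hes, Hey and Bhlhe40 repressors are bHLH proteins that work mostly without E proteins. Of 12 in the table, 4 were tested, 0 passed, and 2, both lower, had an unadjusted p under 0.05. Hes1, a target of Notch, was at 6.52 ± 1.58 FPKM in MYC/Twist1-HCC and 9.91 ± 2.76 FPKM in MYC-HCC (SD, n = 5 each; log2 difference -0.59, SE 0.23, limma adjusted p = 0.252). Hes6, which counteracts Hes1, lay in the same direction (-0.65, SE 0.27, adjusted p = 0.276). Bhlhe40, a repressor of the circadian clock, was at 10.16 to 15.58 FPKM in MYC/Twist1-HCC, at 5.35 to 9.44 FPKM in MYC-HCC libraries 1, 2, 3 and 5 and at 43.65 FPKM in library 4. Its log2 difference was 0.29 (adjusted p = 0.795), and 0.83 without library 4, then past the threshold (adjusted p = 0.0363).

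BMP signals induce Id genes through Smad1, Smad5 and Smad9. The list of BMP ligands, receptors, antagonists and Smads also held Tfr2, which is none of these. Of its 26 genes in the table, 13 were tested and 0 passed. At an unadjusted p under 0.05 in limma there were 2, Smad1 and Tfr2, both higher. The median log2 difference of the 13 was 0.11, or -0.0038 without MYC-HCC library 4. Smad1 was at 5.54 ± 0.605 FPKM in MYC/Twist1-HCC and 4.35 ± 0.542 FPKM in MYC-HCC (SD, n = 5 each; log2 difference 0.34, SE 0.14, limma adjusted p = 0.267). Its groups did not overlap, but only just. The lowest MYC/Twist1-HCC library was at 4.91 FPKM and the highest MYC-HCC library at 4.88 FPKM. Of all genes tested, 4.02% had groups without overlap. Tfr2, the iron sensor of hepatocytes, was at 24.05, 21.02, 18.86, 14.80 and 29.29 FPKM in MYC/Twist1-HCC and at 8.44, 6.32, 7.88, 26.28 and 15.89 FPKM in MYC-HCC. Its log2 difference was 0.90 (SE 0.37, adjusted p = 0.268), and 1.21 without library 4 (SE 0.27, adjusted p = 0.0333), then past the threshold.

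Of 10 other BMP target genes, 5 were tested, with 0 past the adjusted threshold, 0 at an unadjusted p under 0.05 and a median log2 difference of 0.52, which was 0.24 without MYC-HCC library 4. Hamp, which encodes the iron hormone hepcidin, was at 91.65, 19.29, 84.21, 51.92 and 261.25 FPKM in MYC/Twist1-HCC and at 49.63, 8.73, 58.41, 121.65 and 90.50 FPKM in MYC-HCC. Hamp was highest in MYC/Twist1-HCC library 5, which also had the most Id1 and Id2. In MYC-HCC, though, Hamp was highest in library 4, where Id1 was the lowest of the 10, at 2.35 FPKM. The least Hamp of MYC/Twist1-HCC was in library 2, where Id1 was next to its highest, at 7.73 FPKM. Hamp overlapped between the groups (log2 difference 0.57, SE 0.78, limma adjusted p = 0.738, and 0.90 without MYC-HCC library 4, adjusted p = 0.461). Smad6, which inhibits BMP signals, differed by 0.52 on the log2 scale (SE 0.35, adjusted p = 0.470). Smad6 was lowest in library 4, at 0.85 FPKM, and without it the difference was 0.24 (SE 0.28, adjusted p = 0.583). Tmprss6, a protease that lowers hepcidin, was at 3.16 to 27.65 FPKM in MYC/Twist1-HCC, 0.28 to 7.11 FPKM in MYC-HCC libraries 1, 2, 3 and 5 and 55.33 FPKM in library 4 (log2 difference 1.498, adjusted p = 0.520, and 2.46 without library 4, adjusted p = 0.0891).

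Most cofactors of E proteins were expressed in all tumors. The list of 15 genes also held Usp1, which acts on Id proteins. Of the 15, 12 were tested, and 0 passed, also at an unadjusted p under 0.05. Of the 12 differences 6 were positive, with a median of -0.03, or -0.05 without MYC-HCC library 4. Kat2a, an acetyltransferase, was at 33.4 ± 9.09 FPKM in MYC/Twist1-HCC and 46.4 ± 11.7 FPKM in MYC-HCC (SD, n = 5 each; log2 difference -0.48, limma adjusted p = 0.364). Usp1, a deubiquitinase that in human cells stabilises Id proteins, was at 23.4 ± 4.41 FPKM in MYC/Twist1-HCC and 32.3 ± 7.82 FPKM in MYC-HCC (SD, n = 5 each; log2 difference -0.44, adjusted p = 0.313). Like Tcf3, both were lower in MYC-HCC library 4 than in the other 4 MYC-HCC libraries, at 27.52 and 20.44 FPKM. Without library 4 their log2 differences were -0.66 and -0.60 (adjusted p = 0.0764 and 0.0503).

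Proteins reported to bind Twist1 included the gene nearest to a call in the pathway lists. Of 15 in the table, 12 were tested, 0 passed, 3 had an unadjusted p under 0.05 (2 higher, 1 lower), and the median log2 difference was -0.19, or -0.25 without MYC-HCC library 4. Rbbp7, a histone-binding subunit of the NuRD complex, was at 185.42, 225.43, 190.02, 234.12 and 136.11 FPKM in MYC/Twist1-HCC and at 85.80, 85.30, 81.48, 67.89 and 108.47 FPKM in MYC-HCC. The groups did not overlap, and the log2 difference was 1.17 (SE 0.18, limma adjusted p = 0.0704), with 1.09 and a call without library 4 (adjusted p = 0.0210). Hdac2, another NuRD subunit, lay the other way and also without overlap, at 14.1 ± 3.32 FPKM in MYC/Twist1-HCC and 20.6 ± 1.31 FPKM in MYC-HCC (SD, n = 5 each; log2 difference -0.57, SE 0.18, adjusted p = 0.197). Rela, the NF-kappaB subunit, differed by 0.39 on the log2 scale (SE 0.16, adjusted p = 0.268).

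Genes reported as Twist1 targets in other systems did not stand out. Of 20 in the table, 13 were tested, 0 passed the adjusted threshold and 0 had an unadjusted p under 0.05 in limma, and the median log2 difference was 0.14, or 0.045 without MYC-HCC library 4. Ybx1, which encodes the RNA-binding protein YB-1, was at 297.6 ± 80.3 FPKM in MYC/Twist1-HCC and 405.2 ± 76.4 FPKM in MYC-HCC (SD, n = 5 each; log2 difference -0.46, SE 0.22, adjusted p = 0.325). Foxa1, a transcription factor of liver development, ranged from 0.16 to 9.12 FPKM in MYC/Twist1-HCC and from 0.06 to 6.16 FPKM in MYC-HCC, and its 2 highest values were in MYC/Twist1-HCC library 2 and MYC-HCC library 4. Bmi1, a Polycomb subunit, differed by -0.23 on the log2 scale (SE 0.25, adjusted p = 0.658), and by -0.063 without library 4 (adjusted p = 0.870).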

How the data were processed

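Total RNA of flash-frozen liver tumors was sequenced as single-end reads. The authors deposited 1 table of FPKM. Per the labels, reads were processed with Trimmomatic, STAR (mm10), Picard and featureCounts, while the methods name RSEM; versions are not given in the sources used here. The 5 MYC-HCC columns share 1 heading and are numbered in column order.

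Depth was estimated from gene models under 150 bp, on which FPKM were multiples of 1 read (99.5% to 100% within 0.1 reads). Values were tested as log2(FPKM + 0.1) with limma 3.58.1 in R 4.3.3 (variance trend, two-sided). FPKM are no counts, so no count model was run. The fit was tested on simulated data. Python 3.11.15, pandas 2.3.3 and matplotlib 3.10.9 were used otherwise. Coordinates are GRCm38, GENCODE vM21.

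The members and lists were chosen with earlier results of these data known. Named are the members, up to 4 genes of each pathway list with the smallest p, and the 3 nearest profiles of members with an SD of at least 0.5. Alternatives were an added 1 or 0.01, quantile normalization, median-ratio scaling, no filter, a filter on a mean of 1 FPKM, no trend, quality weights and each library left out. Quality weights without MYC-HCC library 4 were added after seeing the data.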

Additional observations from a re-analysis of the deposited data

Results flagged for a closer look

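In groups of 5 libraries, 17 sets of member values were searched for 1 library far from the other 4, by Dixon's ratio of the gap to the whole range with a critical value of 0.71, which chance passes in about 1 of 20 groups. Values of 3 genes stood out, 2 of them in the same tumor. Tcf3 was at 9.44 FPKM in MYC-HCC library 4, against 24.97 to 30.99 FPKM in the other 4 MYC-HCC libraries (ratio 0.818 on the log2 scale). Tcf4 was at 2.14 FPKM in the same library, against 0.41 to 0.66 FPKM (ratio 0.730). Id2 was at 67.35 FPKM in MYC/Twist1-HCC library 5, against 25.80 to 33.05 FPKM in the other 4 MYC/Twist1-HCC libraries (ratio 0.742), and Id1 was also highest there, at 9.62 FPKM.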

How the results depend on the processing

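No paired analysis was possible because the MYC-HCC columns share 1 heading and carry no replicate numbers. The count of members past limma's threshold was 0, with 2 (Twist1 and Id1) under library quality weights, 2 under those weights with MYC-HCC library 4 left out, and 0 to 1 when each library was left out, the 1 being Twist1 without MYC-HCC library 4. Over all genes tested the count was 3, with 5 for an added constant of 1, 1 for 0.01, 21 for median-ratio scaling, 2477 (1008 higher, 1469 lower) for quality weights, 2805 for the weights with library 4 left out, and 1 to 1099 when each library was left out. The 1099 (526 higher, 573 lower) came without MYC-HCC library 4, 32 without MYC-HCC library 5 and 1 without MYC/Twist1-HCC library 1 or 4. Over the alternatives the log2 difference of Twist1 was 3.02 to 6.36 (limma adjusted p 0.00847 to 0.211) and that of Id1 0.66 to 0.96 (adjusted p 0.0196 to 0.368). Those of Tcf3 (-0.47 to -0.04), Tcf12 (0.02 to 0.25), Id2 (0.06 to 0.41) and Id3 (0.13 to 0.81) kept their sign and passed in no alternative. When each library was left out, the range was -0.039 to 0.49 for Tcf4, turning without MYC-HCC library 3. It was -0.049 to 1.05 for Hamp, -0.036 to 0.53 for Sox18, -0.048 to 0.42 for Ctsk and -0.13 to 0.35 for Itpkb, and Itpkb was also at -0.011 with an added 1 and -0.083 under quantile normalization. The cause was not tested. Depth limits Twist2, Id4 and the Twist1 level of MYC-HCC, which rest on 0 to 10 estimated reads.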
